A study of Homo sapiens with 6 samples.

Results

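Metallothioneins are small cysteine-rich proteins that bind zinc and copper. The genes described here are MT1X, MT2A and MT1E, 3 of the 7681 genes in the authors' deposited tables. They were taken by symbol, as MT2A or MT1 followed by 1 letter, and were chosen by being listed, that is by the authors' log2 fold change and q-value. The study compared RNA from the human colorectal carcinoma cell line HCT116, with 3 wild-type cultures and 3 cultures labelled Rab27B KO, in which CRISPR/Cas9 was used to delete RAB27B, a small GTPase of secretory vesicles. All 6 were grown without treatment in DMEM with 10% FBS for 48 hours, while the sources used here do not say whether the edited cells were 1 clone. The deposited data used here give, per gene, a log2 fold change (Rab27B KO relative to wild type) and a q-value. They hold no value per sample, so no spread between replicates, standard error or depth can be given.

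Metallothionein proteins hold metal ions in clusters of cysteine thiolates and buffer free zinc and copper in the cytosol. Their genes are switched on when cells take up zinc, cadmium or copper, through the zinc-sensing transcription factor MTF1, which binds short metal response elements in their promoters. Glucocorticoids, oxidative stress and low oxygen are further known inducers. In the gut, metallothioneins are known for storing absorbed zinc and copper in epithelial cells.

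Some facts of the whole comparison bear on each direction below. The authors' deposited table gives RAB27B, the targeted gene, as higher by 36.7-fold in samples labelled as its knockout. Its transcript thus went against the label, and each direction is that of the labelled samples. Of all RefSeq protein-coding genes 37.9% were listed, and 50.7% of the listed genes were higher. The number of genes the authors tested is unknown. The 37.9% is thus a share of annotated genes, with or without reads, and the share among tested genes cannot be given. Of 12 markers of colonic epithelium 7 were listed, the keratin genes KRT8, KRT18, KRT19 and KRT20 as higher and CDX2, EPCAM and CDH1 as lower. CDX1, VIL1, CDH17, GPA33 and LGALS4 were in neither table, which does not tell an unchanged gene from one without reads.

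MT1X, MT2A and MT1E were all listed as higher in the labelled knockout samples, in a table set where 50.7% of the genes were higher. MT1X (gene ID 4501; GRCh38 chr16:56682470-56684196, protein coding) had a log2 fold change of 2.02 by the authors' deposited table, a 4.07-fold higher level (q = 3.05e-194). MT2A (gene ID 4502; chr16:56608584-56609497), which encodes metallothionein-2, stood at 1.34 by the authors' deposited table, or 2.54-fold higher (q = 2.64e-239). MT1E (gene ID 4493; chr16:56625781-56627112) stood at 0.97 by the authors' deposited table, or 1.96-fold higher (q = 2.07e-129). These values chose the genes and are given as a description. Because the RNA came from whole cultures, a rise in each cell and a larger share of cells with much of the RNA cannot be told apart.

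MT1X changed most and MT2A had the smallest q-value. The log2 fold change of MT1X exceeded that of MT2A by 0.68 and that of MT1E by 1.05. MT2A in turn exceeded MT1E by 0.37. Without values per sample it cannot be said whether neighbours in this order differ beyond their spread. Among the 3898 higher genes, MT1X ranked 140, MT2A 282 and MT1E 495 by log2 fold change. By q-value they stood nearer the top, with 44, 29 and 91 of all listed genes having a smaller one than MT1X, MT2A and MT1E. MT1X and MT2A passed a log2 fold change of 1, and MT1E lay just under it. Higher genes that passed it numbered 469, or 6.11% of all 7681 listed genes in both directions. The 3 genes also had q-values below 0.01, as did 3332 of the 3898 higher genes. Those 3332 are 43.4% of all 7681 listed genes in both directions. The tables end at a q-value of 0.05, where the last genes listed were HPD at 0.0497 among the higher and INTS8 at 0.049996 among the lower, as the authors' deposited table gives them.

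**Figure D1:**
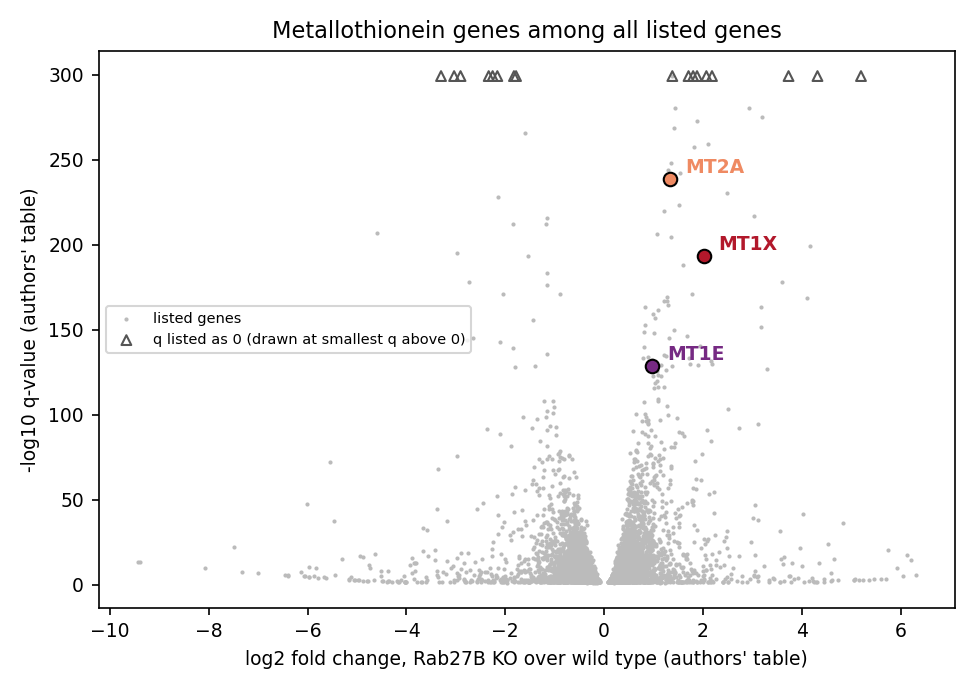
Each point is 1 listed gene, with its log2 fold change (Rab27B KO relative to wild type) on the x axis and -log10 of the authors' q-value on the y axis; triangles mark the 17 genes whose q-value is listed as 0. MT2A, MT1X and MT1E lie on the higher side at log2 fold changes of 1.34, 2.02 and 0.97, above most genes of like fold.

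Genes with the same size of change mostly had far weaker q-values. Within 0.1 log2 units of MT1X lay 26 other listed genes with a median q-value of 2.62e-12, and 2 of them had a smaller q-value than MT1X. Within the same distance of MT2A lay 78 genes with a median of 4.15e-18, and within that of MT1E 191 genes with a median of 2.25e-17. In each of these latter bands 5 genes had a smaller q-value than the metallothionein. The transcripts are short. The longest coding transcripts of MT1X, MT2A and MT1E in GENCODE release 29 have 538, 786 and 729 bases, against a median of 3519 bases over the listed genes with a length. Only 0.237%, 1.49% and 1.14% of those genes had a shorter one. The level of a gene in reads is not in the tables, so its part in these q-values was not tested.

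By the size of its change alone, each metallothionein had close neighbours of unrelated kinds. Over this 1 contrast the listed genes closest to MT1X were HTR3A, a serotonin-gated channel gene, and BIRC3, an inhibitor of apoptosis, which stand at 2.02 and 2.02 on the log2 scale of the authors' deposited table. Those closest to MT2A were the small heat shock protein gene HSPB8 at 1.34 and BCAR3 at 1.35 by the authors' deposited table. Those closest to MT1E were OLFML2A and the nuclear receptor gene NR5A2, at 0.97 and 0.97 by the authors' deposited table. Likeness here is only the difference in log2 fold change.

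The coding sequences show how alike the 3 transcripts are, which matters because paralogs can share reads. Each is 186 bases with the stop codon, spliced from 3 exons on the plus strand of chromosome 16, and 20 of its 61 codons (32.8%) are cysteine codons. The sequences below are from GENCODE release 29 transcripts on GRCh38, written 5′ to 3′, with capitals at the 22 positions where the 3 genes are not all the same. The other 164 positions (88.2%) are identical.
MT1X: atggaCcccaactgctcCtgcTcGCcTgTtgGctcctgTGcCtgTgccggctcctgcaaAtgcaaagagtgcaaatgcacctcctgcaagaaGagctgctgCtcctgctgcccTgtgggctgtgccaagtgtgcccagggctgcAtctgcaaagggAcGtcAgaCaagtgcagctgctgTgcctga
MT2A: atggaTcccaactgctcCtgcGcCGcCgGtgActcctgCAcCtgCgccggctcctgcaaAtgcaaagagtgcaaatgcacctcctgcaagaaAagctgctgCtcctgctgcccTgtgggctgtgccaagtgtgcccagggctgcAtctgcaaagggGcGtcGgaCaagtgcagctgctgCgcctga
MT1E: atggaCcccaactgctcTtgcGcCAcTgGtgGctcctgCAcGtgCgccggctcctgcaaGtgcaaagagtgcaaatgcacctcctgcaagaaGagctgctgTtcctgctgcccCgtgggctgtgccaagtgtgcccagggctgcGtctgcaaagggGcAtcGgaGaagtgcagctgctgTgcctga

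Of the 22 positions that differ, 13 lie in the first 62 bases of the frame, 3 in the next 62 and 6 in the last 62. In pairs, 172 of 186 bases (92.5%) were the same in MT1X and MT2A, 172 in MT1E and MT2A, and 169 (90.9%) in MT1E and MT1X. Genes that were not listed were at least as close. MT2A was nearest to MT1G, with 95.2% identity, MT1E to MT1A and MT1G with 94.6% each, and MT1X to MT1H with 93.0%. MT4, which is expressed in stratified epithelia, was the least alike of the 11 other coding members for MT1X, MT2A and MT1E, with 72.5%, 71.4% and 72.5%.

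Shared stretches were counted as windows of 50 and of 100 bases. Of the 50-base windows of MT2A 36 of 737 (4.88%) occurred exactly in a transcript of another gene, and of those of MT1E 35 of 655 (5.34%). These shares depend on the transcript used, whose coding sequence began at base 458 in MT2A, 378 in MT1E and 118 in MT1X. The long stretches before it in MT2A and MT1E held no start of a shared window and lower their shares beside that of MT1X. For MT1X, 64 of 401 (15.96%) were shared with another metallothionein gene or pseudogene, most often MT1G with 47 and the pseudogene MT1XP1 with 38. A further transcript, AC026461.1, held 117 of the 401 windows of MT1X, in the early part of its transcript, in a search of both strands. With AC026461.1 included, 181 of the 401 windows of MT1X (45.1%) also occurred in a transcript annotated to another gene. The place of AC026461.1 in the genome was not looked up. An annotation that overlaps MT1X itself and a second copy elsewhere thus cannot be told apart here. With windows of 100 bases, no window of MT1X, MT2A or MT1E was shared with another metallothionein, and 67 of 351 of MT1X (19.1%) were shared with AC026461.1. The sources used here give neither the read length nor how reads that fit several genes were counted. The fold of each of these genes is thus uncertain where reads were shared.

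**Figure D2:**
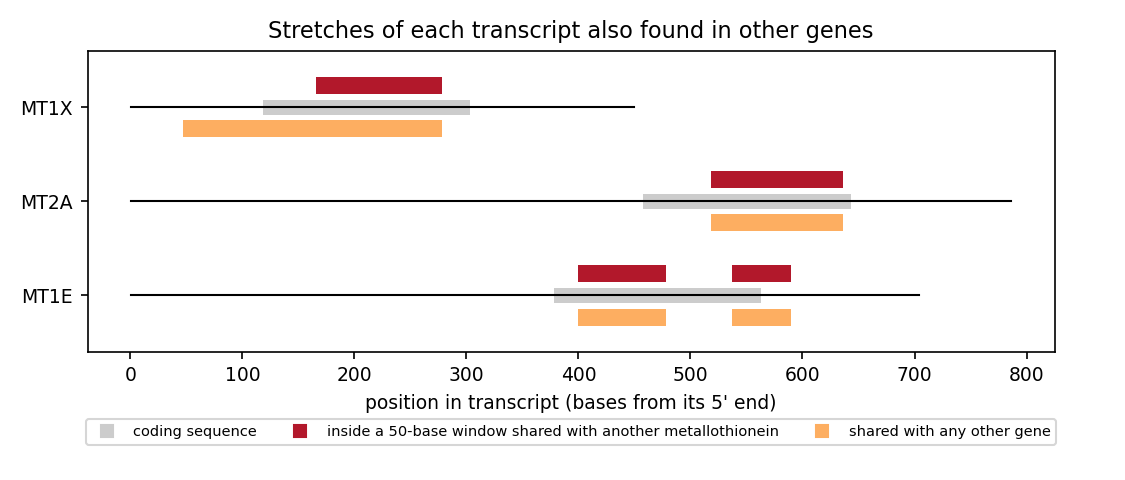
The x axis is the position in the transcript in bases, and each black line is 1 transcript with its coding sequence in grey. Red blocks above the line cover 50-base windows found exactly in another metallothionein and orange blocks below it those found in any other gene; they lie mostly over the coding sequence, and in MT1X the orange block also covers the stretch shared with AC026461.1.

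The other members of the family were in neither table. RefSeq holds 21 metallothionein genes and pseudogenes, 12 of them protein coding, and 16 of the 21 form a cluster on chromosome 16. Of the 12 coding genes 3 were listed, each as higher, where 37.9% of RefSeq protein-coding genes were listed in either direction and 19.2% as higher. The rule by symbol also covers MT1A, MT1B, MT1F, MT1G, MT1H and MT1M, which encode further metallothionein-1 isoforms, and the pseudogene MT1L, 7 in all that were not listed. MT3, known from neurons, MT4 and MT1HL1 were not listed either. Whether these genes were unchanged, had too few reads or were not measured is unknown, so the listed genes are not shown to differ from them.

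**Figure D3:**
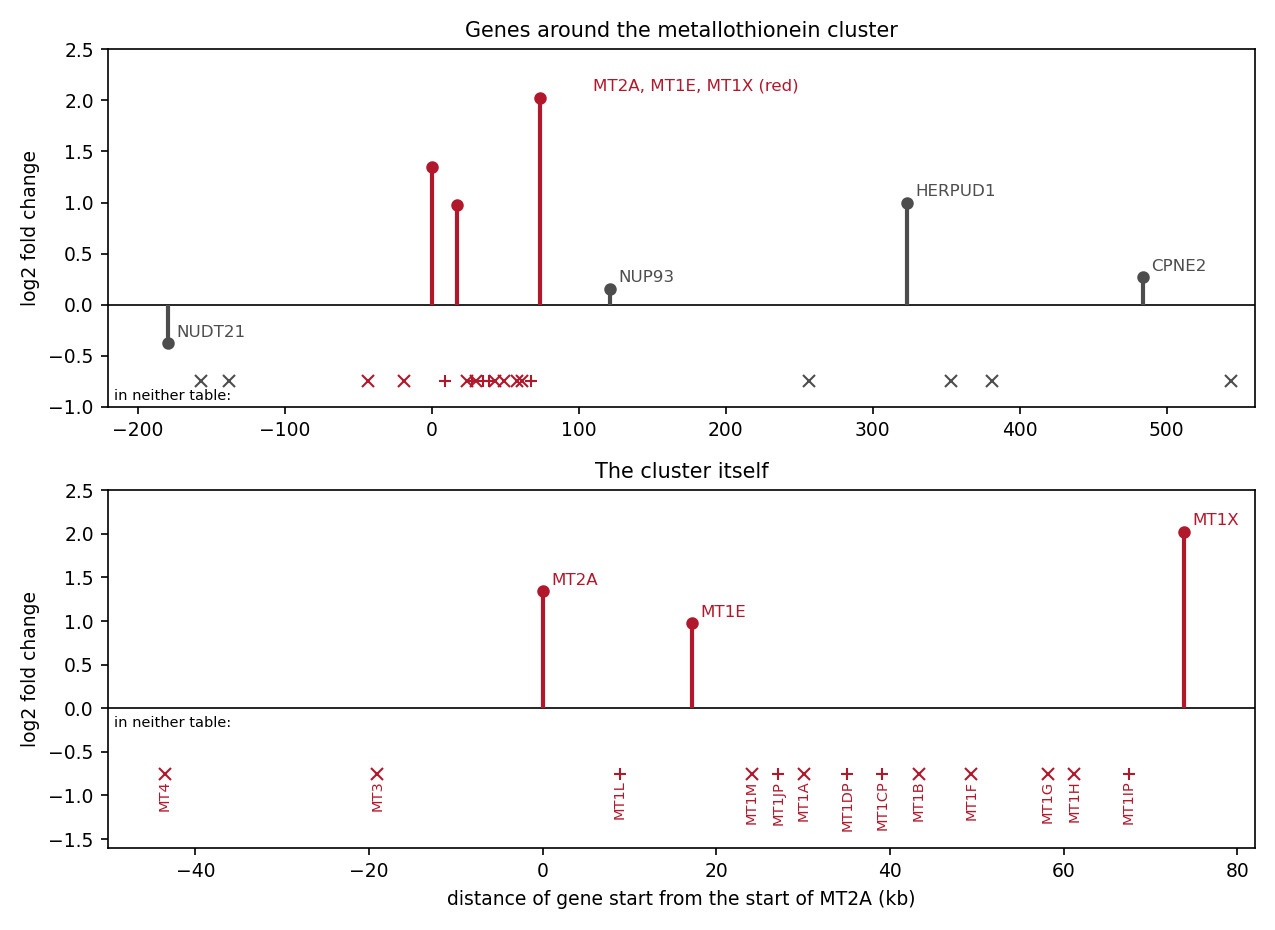
The x axis is the distance of each gene's start from that of MT2A in kb and the y axis the authors' log2 fold change; red marks metallothioneins, grey other protein-coding genes, crosses coding genes and plus signs pseudogenes that were in neither table. MT2A, MT1E and MT1X stand at 1.34, 0.97 and 2.02 among unlisted members of the cluster.

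Listed and unlisted genes are interspersed in the cluster. MT1E starts 17.2 kb and MT1X 73.9 kb from the start of MT2A, and MT1M, MT1A, MT1B, MT1F, MT1G and MT1H lie between MT1E and MT1X. The protein-coding neighbours outside the family that are named here, all starting within 500 kb of the cluster, moved less than MT1X and MT2A. The largest change among them by the authors' deposited table was that of HERPUD1, an endoplasmic reticulum stress gene, at 1.00 on the log2 scale. That is slightly more than MT1E at 0.97. CPNE2 stood at 0.27, the nucleoporin gene NUP93 at 0.16 and the RNA processing gene NUDT21 at -0.38 by the authors' deposited table. On the whole of chromosome 16, 190 of 355 listed genes (53.5%) were higher. MT2A, MT1X and MT1E had the 3 smallest q-values of the chromosome and ranked 8, 3 and 16 by log2 fold change.

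The promoters of MT2A and MT1X are shown because metal response elements are what MTF1 reads in this family. The RefSeq promoter table (GRCh38.p14) matched 5 metallothionein genes, of which MT2A and MT1X were listed and MT1B, MT1H and MT4 were not. MT1E had no window there, so its promoter was not searched. The sequences are the 250 bases before the RefSeq start, on the plus strand, at chr16:56608334-56608583 for MT2A and chr16:56682220-56682469 for MT1X. The GENCODE transcripts used for the shared windows begin upstream of these starts, and that of MT2A runs through all 250 bases printed here. Capitals mark the core of the metal response element, TGCACNC or TGCGCNC on either strand.
MT2A: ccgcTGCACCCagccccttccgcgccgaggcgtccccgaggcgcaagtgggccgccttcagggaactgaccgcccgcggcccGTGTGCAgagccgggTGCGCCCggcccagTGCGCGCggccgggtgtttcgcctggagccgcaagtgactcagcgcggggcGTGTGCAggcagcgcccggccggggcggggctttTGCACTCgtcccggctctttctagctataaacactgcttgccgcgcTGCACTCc
MT1X: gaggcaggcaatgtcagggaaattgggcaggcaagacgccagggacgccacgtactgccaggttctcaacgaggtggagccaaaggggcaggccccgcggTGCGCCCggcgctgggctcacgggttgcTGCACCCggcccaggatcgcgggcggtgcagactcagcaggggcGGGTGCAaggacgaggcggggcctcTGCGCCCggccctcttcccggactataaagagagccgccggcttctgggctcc

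MT2A had 7 cores before its start and 8 in the window that runs on to 50 bases after it. Of these 8, 3 lay on the opposite strand. MT1X had 4, of which 1 lay on the opposite strand and overlapped a GC box. The 300-base window held at least 1 core in 29.3% of 27305 promoters, at least 4 in 0.593% and at least 8 in 0.0220%. The unlisted metallothioneins that had a promoter window held cores too, with 8 in MT1H, 3 in MT1B and 3 in MT4. The remaining unlisted members had no window and were not searched. Across the genome the share with a core was close on both sides of the comparison, at 38.8% of the listed higher and 40.2% of the listed lower genes. A match is a string of letters and does not show that a factor binds there.

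**Figure D4:**
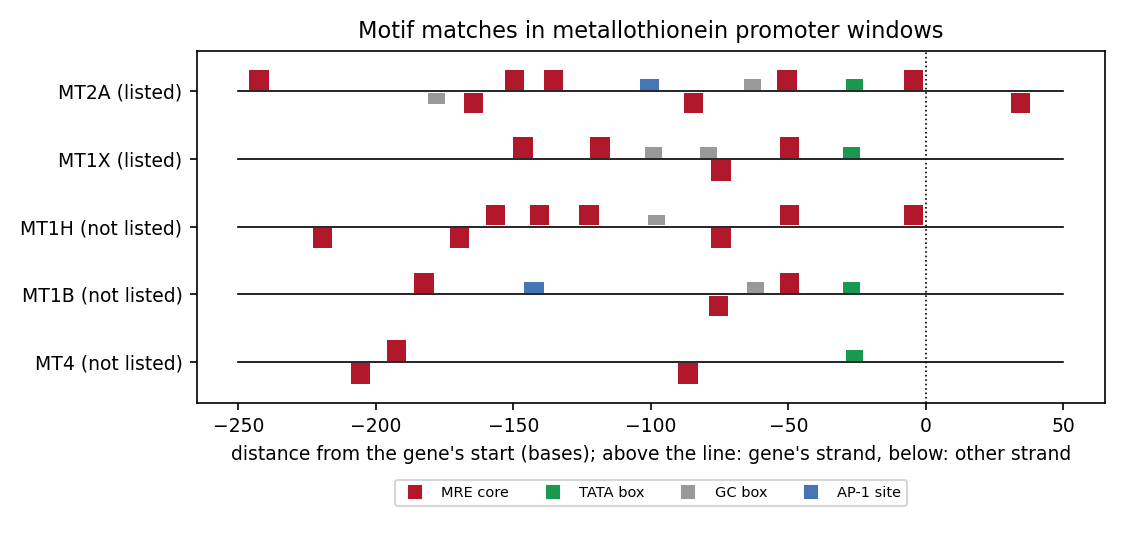
The x axis is the distance from the gene's start in bases and each line is the promoter window of 1 metallothionein gene, with matches on the gene's strand drawn above and on the other strand below the line. Red blocks are cores of the metal response element: MT2A has 8, MT1X 4, MT1H 8, MT1B 3 and MT4 3.

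The other motifs searched on both strands were fewer. A TATA box (TATAAA) stood 29 bases before the start of MT2A and 30 before that of MT1X, and 11.95% of all promoter windows held one. MT2A and MT1X each had 2 GC boxes (GGGCGG), a motif in 44.6% of windows. These shares are over all genes with a window, and those of listed genes differ. The GC box was in 75.3% of listed higher and 69.2% of listed lower genes, the TATA box in 6.51% and 4.71%. MT2A had an AP-1 site (TGACTCA, or TGAGTCA on the other strand; 4.92% of windows) that overlaps a core of the antioxidant response element (TGACNNNGC; 13.6% of windows). MT1X had 1 antioxidant core and 1 core of the hypoxia response element (ACGTG; 21.6% of windows). Neither window held an E-box (CACGTG, which contains ACGTG; 7.43%) or an interferon-stimulated element (GAAANNGAA; 8.29%).

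The genes known to control metallothionein promoters went both ways. MTF1 itself was in neither table, and neither were NFE2L2, which drives the antioxidant response, and USF2. Of 10 such regulators 7 were listed, 3 higher and 4 lower (background 37.9% listed, and of those 50.7% higher and 49.3% lower). Their median log2 fold change was -0.17 against 0.12 over all listed genes. NR3C1, the glucocorticoid receptor gene, was 1.79-fold higher (q = 1.58e-17) and HIF1A, a subunit of the hypoxia factor, 1.40-fold higher by the authors' deposited table (q = 1.71e-28). SP1, which binds GC boxes, was 1.31-fold lower (q = 2.16e-17) and KEAP1, the inhibitor of NRF2, 1.26-fold lower by the authors' deposited table (q = 4.24e-11).

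The listed zinc transporter genes had smaller changes than the metallothioneins. SLC30A1, the zinc exporter of the plasma membrane and a known MTF1 target, was in neither table. Of 10 zinc exporters 3 were listed, 2 higher and 1 lower (background 37.9% listed and 50.7% of those higher). SLC30A3, known for loading zinc into synaptic vesicles, was 1.24-fold and SLC30A5, which supplies zinc to the secretory pathway, 1.19-fold higher by the authors' deposited table. SLC30A9 was 1.24-fold lower by the authors' deposited table. Of 14 zinc importers 8 were listed, 7 higher and 1 lower (background 37.9% listed and 50.7% of those higher). Their median log2 fold change was 0.26 against 0.12 over all listed genes. SLC39A14 (ZIP14), which also carries iron and manganese, was 1.54-fold higher by the authors' deposited table (q = 4.33e-53). SLC39A7, which releases zinc from the endoplasmic reticulum, and SLC39A9 were 1.26-fold and 1.28-fold higher by the authors' deposited table. SLC39A10, an importer of the plasma membrane, was 1.65-fold lower by the authors' deposited table (q = 3.04e-19).

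Copper genes held larger changes, in HEPH, ATOX1 and SLC31A2, than any listed zinc transporter. Of 19 genes 10 were listed, 7 higher and 3 lower (background 37.9% listed and 50.7% of those higher), with a median log2 fold change of 0.41 against 0.12 over all listed genes. ATOX1, the chaperone that hands copper to the secretory pathway pumps, was 2.16-fold higher by the authors' deposited table (q = 2.66e-39). SLC31A2 was 1.78-fold, CCS, the copper chaperone for superoxide dismutase, 1.48-fold and its client SOD1 1.25-fold higher by the authors' deposited table. HEPH, the copper-dependent ferroxidase hephaestin of enterocytes, was 5.88-fold lower by the authors' deposited table (q = 4.20e-04). The remaining lower genes, named after their values were seen, were the copper pump ATP7B at 1.46-fold lower and COX19 at 1.33-fold lower by the authors' deposited table. Over the 43 zinc and copper genes together 21 were listed, 16 higher and 5 lower, with a median of 0.31, beside the same background.

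Genes that heavy metals are known to induce were taken as a further list, metallothioneins left out. Of 15 genes 13 were listed, 12 higher and 1 lower (background 37.9% listed and 50.7% of those higher), with a median log2 fold change of 0.52 against 0.12 over all listed genes. The 37.9% is over all annotated coding genes, so whether this list is listed more often than genes with reads was not tested. The ferritin genes FTH1 and FTL, which store iron, were 1.76-fold (q = 1.61e-140) and 1.43-fold higher by the authors' deposited table. GCLM, a subunit of the enzyme that makes the glutathione precursor, was 2.20-fold (q = 1.22e-67) and HMOX1, heme oxygenase 1 and a classic cadmium response gene, 2.02-fold higher by the authors' deposited table (q = 3.03e-64). The heat shock gene HSPH1, the lower one, was 1.51-fold lower by the authors' deposited table and was named after its value was seen. HSPA6 and SLC7A11 were not listed.

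Glucocorticoid target genes were listed in both directions. Of 10 genes 7 were listed, 5 higher and 2 lower (background 37.9% listed and 50.7% of those higher), with a median log2 fold change of 0.45 against 0.12 over all listed genes. SGK1, a kinase gene, was 2.25-fold (q = 9.56e-16) and DUSP1, a MAP kinase phosphatase gene, 1.92-fold higher by the authors' deposited table (q = 1.01e-19). FKBP5, a co-chaperone of the receptor, was 1.42-fold lower (q = 2.20e-23) and the clock gene PER1 1.32-fold lower by the authors' deposited table (q = 3.59e-12).

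**Figure D5:**
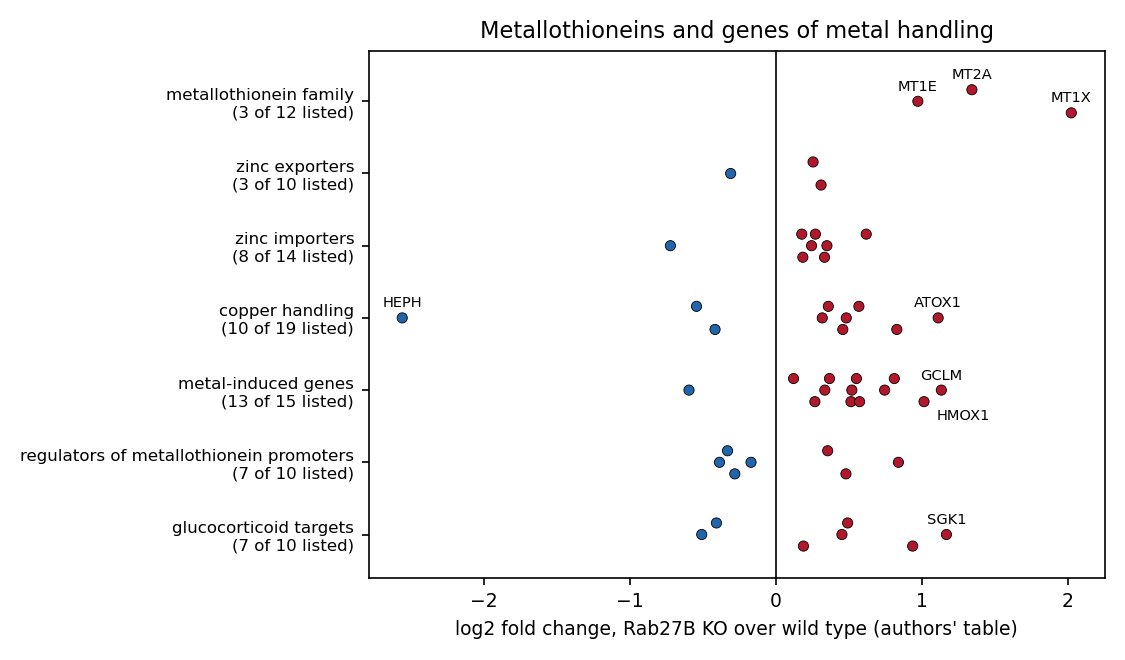
Each point is 1 listed gene placed by its log2 fold change in the authors' table (x axis), red if higher and blue if lower, with 7 gene lists on the y axis (the colonic epithelium markers are not drawn); points are spread vertically only for legibility. Of the 7 lists drawn, the metallothioneins hold the point furthest to the right, MT1X at 2.02, HEPH is the lowest of the copper list, and the zinc transporters stay within a log2 change of 1.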

How the data were processed

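RNA sequencing covered 3 wild-type and 3 Rab27B KO cultures of HCT116, grouped by their titles. The submitters' processing notes name HISAT, Bowtie2 and GRCh38; the sources used here give no counting, scaling or test. Per the file headers, the authors' 2 deposited tables hold log2 fold changes (Rab27B KO relative to wild type) and q-values, and 1 of them also the linear ratio. Each listed gene has a q-value below 0.05. No column of values per sample was found, so the planned count tests were not made, depth is unknown and the authors' q-values stand with no test added.

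The genes and gene lists were chosen with earlier results of these data known. Named genes were the family, MTF1, SLC30A1, neighbours within 500 kb, the 2 closest genes by log2 fold change per metallothionein, and in each list the 4 smallest q-values and changes of at least 1; others are marked, and 1 listed neighbour is not reported here. Gene IDs were matched to RefSeq (GRCh38.p14), 7656 of 7681 with success. Promoters were the first start per gene in the RefSeq table. Coding sequences and windows came from 1 GENCODE release 29 transcript per gene, in place of the planned protein comparison, with the window lengths chosen after seeing the data. The motif and window searches were checked on simulated data. Python 3.11.15, pandas 2.3.3 and Biopython 1.88 were used.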

Additional observations from a re-analysis of the deposited data

How the results depend on the processing

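At a q-value below 0.01, and when matched by gene ID, the 3 metallothioneins and the 16 higher and 5 lower zinc and copper genes kept these counts. At an absolute log2 fold change of at least 1 the metallothioneins numbered 2, since MT1E is at 0.97, and the zinc and copper genes fell to 1 higher and 1 lower, because most of their changes are smaller than that. The share of promoters with a core of the metal response element, 29.3%, was 24.7% in the bases before the start only, 11.9% for TGCACNC alone and 12.5% for the longer core TGCACNCNG or TGCGCNCNG; fewer letters or stricter patterns leave fewer matches by construction. MT2A then had 7, 6 and 5 cores and MT1X 4, 2 and 3. No paired analysis was possible because the tables hold no values per sample; for the same reason other count tests, filters, pseudocounts and leaving out a replicate were not run.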

Other observations

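Listed genes whose promoter window held more cores of the metal response element were, the metallothioneins left out, split as follows. Of 3757 listed genes with no core 51.3% were higher, and of 1673 with 1 core 50.6%. The shares were 47.0% of 564 genes with 2 cores, 48.1% of 162 with 3, and 60.0% of 40 with 4. Among the 11 genes with 5 or more, 7 were higher. These shares are a description with no test, and MTF1 was in neither table.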
